A study of Mus musculus with 5 samples.

Results

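TRiC, also called CCT, is the chaperonin of the eukaryotic cytosol, a barrel of stacked rings in which every ring is built from 8 different but related subunits, each present once. Unfolded polypeptides enter the cavity, a lid formed by the subunits themselves closes upon ATP hydrolysis, and the client folds inside. Actin and tubulin depend on it for folding, as do several proteins with WD40 repeats, and prefoldin delivers some of these clients to the barrel. As the subunits are needed in equal numbers, the amount of ribosome footprints on each message can be compared per length of coding sequence.

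The subunits were the 8 genes Tcp1, Cct2, Cct3, Cct4, Cct5, Cct6a, Cct7 and Cct8, out of 53560 gene symbols in the deposited transcript table. They account for 65 of its 135276 transcripts, of which 26 were annotated as protein_coding. For each gene, the protein_coding transcript with the highest mean CPM over all libraries (the reads of a transcript scaled to the size of its library) was taken as its main transcript. 7 of the 8 genes had such a transcript. Cct6a had none, because Gencode M21 types all 7 of its transcripts otherwise, and its highest processed_transcript was used in its place. Of the 1467 coding bases that RefSeq places on the GRCm38 assembly for Cct6a, 1461 lay in that transcript, and this length was used for its density. All 65 transcripts reached at least 1 CPM in a library and were tested.

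The libraries were ribosome profiles of mouse embryonic stem cells (mESCs) kept in self-renewal medium with LIF and serum. Every culture received cycloheximide, an inhibitor of elongation, and every lysate was digested with RNase I. In standard RIBO-seq (3 libraries, labelled as biological replicates), ribosomes were then pelleted through sucrose. In AHARIBO RIBO-seq (2 libraries, likewise labelled), nascent chains carrying the methionine analogue azidohomoalanine (AHA) were coupled to biotin and pulled down on magnetic beads together with the ribosome and its footprint. The study describes the standard libraries as made on the input, and it calls replicates independent. The labels name the treatment of all 5 libraries as untreated, and they give no strain. Before AHA is given, the study's AHARIBO protocol depletes methionine from the medium. Its RNase I digestion for ribosome profiling used a buffer with sBlock, an anisomycin-based reagent. The ribosome profiling section does not say whether the standard libraries share the methionine depletion.

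Counts summed over transcripts came to 6403651 to 9110668 per library in standard RIBO-seq and 9972892 to 11150527 in AHARIBO RIBO-seq after the authors removed duplicate reads. A read can be counted on several transcripts of a gene, so these sums can exceed the number of reads. Markers of embryonic stem cells were present (8 of 8, led by Pou5f1), with summed levels of 1265 to 1361 CPM in standard and 1158 to 1267 CPM in AHARIBO libraries. The fibroblast and endoderm lists summed to at most 5.15 and 3.97 CPM. The neuron list reached 43.9 CPM, most of it Tubb3, and no listed marker was at 0 in every library.

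AHA takes the place of methionine, so the ATG codons of a message are where the tag can enter the chain. The first 30 coding bases of the main transcripts are shown to locate the first of these codons, with in-frame ATG codons in capitals (Gencode M21, GRCm38).
Tcp1: ATGgagggtcctttgtccgtgttcggggac
Cct2: ATGgcttccctttccctcgcacctgttaat
Cct3: ATGATGggccaccgtccagtgctcgtgctc
Cct4: ATGccggagaacgtagcttcccgaagcggg
Cct5: ATGgcgtccgtggggaccctcgccttcgat
Cct6a: ATGgcggcggtaaagaccctaaatccgaag
Cct7: ATGATGcccacaccagttatcctgttgaaa
Cct8: ATGgcgcttcacgtccccaaggccccgggc
Cct3 and Cct7 began with a pair of ATG codons. In the others with a complete coding sequence, the next in-frame ATG came at codon 14 (Cct8), 23 (Tcp1), 29 (Cct5), 48 (Cct2) or 57 (Cct4). The latest of these lie in a stretch that Cct2 and Cct4 share, with 21 of 27 bases identical, shown with that ATG in capitals.
Cct2: ggaccgaagggcATGgacaaaattctc
Cct4: ggacctaaaggaATGgacaaaatgatt
By the study's account, the first methionine is removed during translation in most of the proteome. Whether it was removed in these subunits was not tested. Each message had many further positions for the tag. Methionine codons numbered 14 in Tcp1, 15 in Cct2, 16 in Cct4, 17 in Cct8, 18 in Cct7, 22 in Cct3 and 23 in Cct5. This made 2.52 to 4.25 per 100 codons, against a median of 2.13 over 12214 main coding transcripts. Cct6a was not counted, since its coding sequence is incomplete in the assembly.

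Footprint density was near equal over the subunits. The highest density in a library was 1.43 times the lowest on average over the 5 libraries. The lowest was always Cct8 and the highest Cct5 or Cct7, and the order of the 8 was almost the same in every library. All of them lay far above the median density of 6.90 CPM per kb over 12358 detected main coding transcripts, with 335 (Cct5) to 518 (Cct8) transcripts above them. The question put to these values was whether subunits needed in equal number are translated at equal density, and whether pulldown through the nascent chain changes that picture.

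Tcp1, Cct2, Cct4 and Cct5 form the side of the ring that binds ATP with the higher affinity. Cct5, which encodes the epsilon subunit, was measured on ENSMUST00000022842.15 (chromosome 15, 31590800 to 31601804, minus strand, 11 exons, 1626 coding bases). Its density was 135, 135 and 141 CPM per kb of coding sequence in standard libraries 1 to 3 and 131 and 139 in AHARIBO libraries 1 and 2. It held the first or the second place in each library. Cct2, the beta subunit, was measured on ENSMUST00000047672.8 (chromosome 10, 117051001 to 117063814, minus strand, 16 exons, 1608 coding bases). Its density was 124, 120 and 123 CPM per kb in the standard and 119 and 127 in the AHARIBO libraries. Both AHARIBO values bracketed the standard ones. Cct4, the delta subunit, was measured on ENSMUST00000173867.7 (chromosome 11, 22990519 to 23003780, plus strand, 14 exons, 1620 coding bases). Its density was 118, 114 and 119 CPM per kb in the standard and 110 and 119 in the AHARIBO libraries. It held the fifth place in all of them. Tcp1, the alpha subunit and the founding member of the family, was measured on ENSMUST00000151287.7 (chromosome 17, 12916382 to 12925067, plus strand, 12 exons, 1671 coding bases). Its density was 105, 107 and 100.0 CPM per kb in the standard and 103 and 112 in the AHARIBO libraries. It held the seventh place in all of them.

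Cct3, Cct6a, Cct7 and Cct8 form the side with the lower affinity for ATP. Cct7, the eta subunit, was measured on ENSMUST00000032078.8 (chromosome 6, 85451514 to 85468475, plus strand, 12 exons, 1635 coding bases). Its density was 132, 138 and 144 CPM per kb in the standard and 125 and 137 in the AHARIBO libraries, which gave it the largest spread among libraries (SD 7.14 over 5). Cct6a, the zeta subunit, was measured on ENSMUST00000201414.3 (chromosome 5, 129786998 to 129846371, plus strand, 13 exons). Its density was 123, 120.1 and 120.0 CPM per kb in the standard and 120.0 and 121 in the AHARIBO libraries. This was the smallest spread of the 8 (SD 1.16 over 5). Cct3, the gamma subunit, was measured on ENSMUST00000001452.13 (chromosome 3, 88297116 to 88321767, plus strand, 14 exons, 1638 coding bases). Its density was 113, 112 and 114 CPM per kb in the standard and 106 and 113 in the AHARIBO libraries. It held the sixth place in all of them. Cct8, the theta subunit, was measured on ENSMUST00000026704.13 (chromosome 16, 87483326 to 87495873, minus strand, 15 exons, 1647 coding bases). Its density was 95.1, 95.5 and 96.1 CPM per kb in the standard and 93.5 and 100.0 in the AHARIBO libraries. It was the lowest of the 8 in every library.

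**Figure D1:**
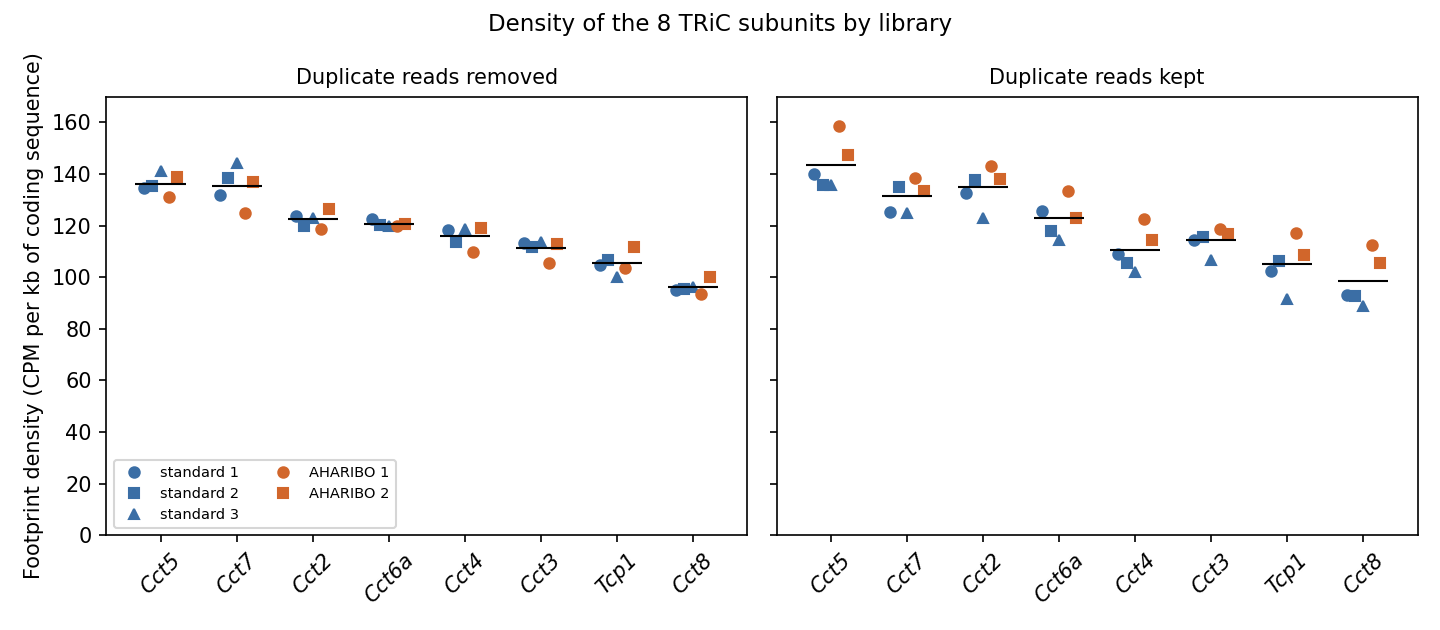
Footprint density (CPM per kb of coding sequence) of the 8 TRiC subunits, ordered by their mean, in each of 3 standard and 2 AHARIBO libraries, with duplicate reads removed (left) or kept (right). Points are libraries and black lines their mean, and the densities fall from 136 (Cct5) to 96.0 CPM per kb (Cct8) on the left, where the methods overlap for every subunit.

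By mean density, members of both sides of the ring alternated along the order, but this pattern was not resolved, as not all neighbours could be ordered. Cct5 and Cct7 (136 ± 3.94 and 135 ± 7.14 CPM per kb, SD, n = 5 libraries) could not be ordered, since Cct5 was higher in 3 of 5 libraries. The same held for Cct2 and Cct6a (122 ± 3.10 and 121 ± 1.16 CPM per kb), where Cct2 was higher in 3 of 5. The 26 other pairs among 28 kept their order in all 5 libraries. Between neighbours, the mean ratio was 1.11 for Cct7 over Cct2, 1.04 for Cct6a over Cct4, 1.04 for Cct4 over Cct3, 1.06 for Cct3 over Tcp1 and 1.10 for Tcp1 over Cct8. An exact two-sided sign-flip test over the 5 libraries gave p = 0.0625 for each of these, the smallest it can give (0.0875 after adjustment over the 7 neighbouring pairs), so the design cannot place a pair past 0.05. The order depends on how reads and lengths are counted. With duplicates kept, Cct2 exceeded Cct7 in 4 of 5 libraries and Cct3 exceeded Cct4 in 4 of 5, while Cct5 was above Cct7 and Cct2 above Cct6a in 5 of 5. With transcripts summed, Cct3 was the highest and Cct5 the lowest of the 8 (0.684 times their mean, from 1.15). Per kb of whole transcript Cct6a fell to place 7.

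The spread over the 8 was somewhat smaller in the AHARIBO libraries, and the difference did not pass the test. The highest density exceeded the lowest 1.42, 1.45 and 1.499 times in the standard and 1.40 and 1.39 times in the AHARIBO libraries. The coefficient of variation over the 8 was 11.3%, 12.1% and 14.3% in the standard and 10.99% and 10.8% in the AHARIBO libraries. Both AHARIBO libraries lay below all standard ones in both measures, by 0.06 in the ratio and by 1.66 percentage points in the coefficient, with an exact permutation p = 0.2 for each. With 2 libraries against 3, the smallest p is 0.1. Without Cct6a the coefficient was 12.8% on average, against 11.9% with it.

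The coding length mattered to this picture. Main transcripts were 1853 (Cct5) to 2484 nt (Cct4) long while coding sequences other than that of Cct6a ran from 1608 to 1671 nt. Per kb of whole transcript, the coefficient of variation rose to 21.1% and the highest density was 1.81 times the lowest. Some of the sequence was not particular to the subunits. Windows of 30 nt that recur in transcripts of other genes made up 14.1% of Cct3, 7.71% of Cct7, 3.75% of Cct4, 2.61% of Tcp1 and 0.207% of Cct2, and 0% of Cct5, Cct6a and Cct8. The gene that shared the most windows was a processed pseudogene in each case. Reads of a subunit and of such a copy cannot be told apart there, and the copies of Cct3 (Cct3-ps1) and Cct7 (Gm5380) were themselves listed at 26.2 and 22.3 CPM.

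Other assemblies with one copy of each subunit gave a scale for this spread. Prefoldin, the hexamer that hands clients to TRiC, varied most. Its 6 subunits lay between 32.3 and 108 CPM per kb of coding sequence, and their coefficient of variation was 44.8%, 48.7% and 46.2% in the standard and 40.8% and 42.3% in the AHARIBO libraries. That exceeded TRiC by 32.7 percentage points on average, in 5 of 5 libraries. Prefoldin coding sequences ran from 369 to 591 nt, against 1608 to 1671 nt in TRiC without Cct6a. The effect of this difference in length was not tested. The MCM2-7 helicase ring (6 subunits, 58.9 to 88.0 CPM per kb) had a coefficient 3.84 percentage points above that of TRiC, also in 5 of 5 libraries. The alpha ring of the 20S proteasome (7 subunits, 70.0 to 94.1 CPM per kb) differed by −0.46 percentage points and was above TRiC in 2 of 5. The exact two-sided sign-flip test gave p = 0.0625, 0.0625 and 0.4375 for these 3 comparisons (0.0938, 0.0938 and 0.4375 after adjustment over them), with 0.0625 the smallest it can give. Per kb of whole transcript the MCM ring was less variable than TRiC, by 5.19 percentage points in 5 of 5 libraries, and the alpha ring more variable, by 16.8, also in 5 of 5. With transcripts summed, the alpha ring was 2.65 points above TRiC (4 of 5 libraries) and the MCM ring 33.7 points (5 of 5).

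**Figure D2:**
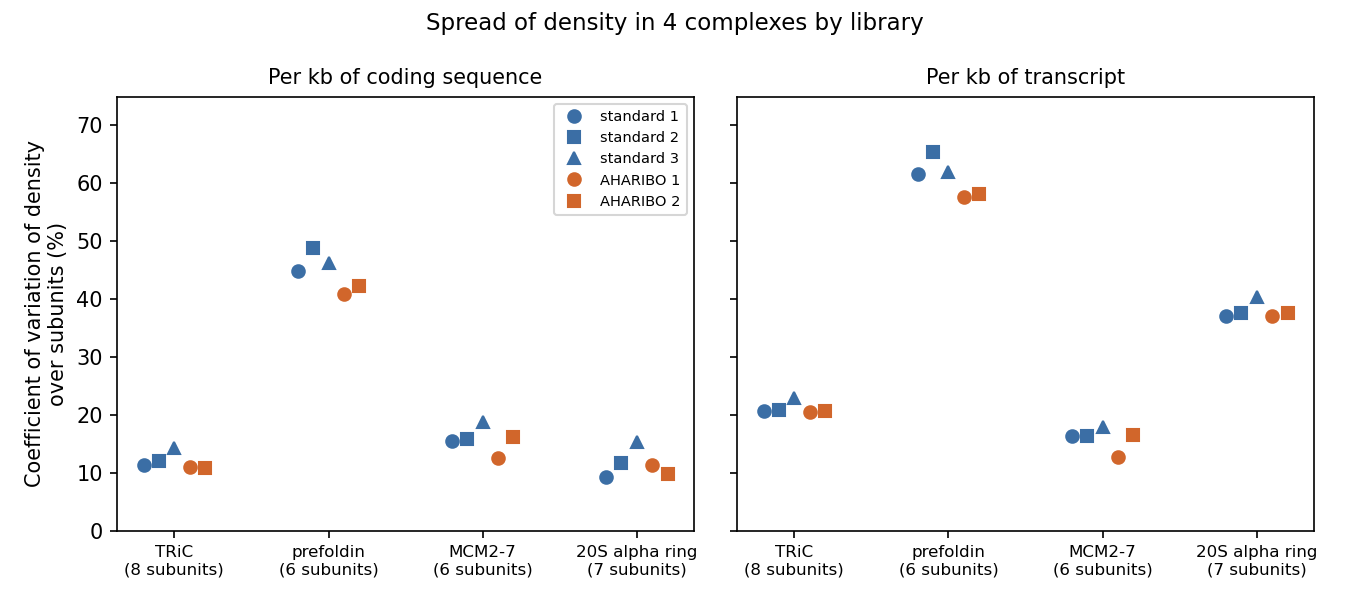
Coefficient of variation (%) of footprint density over the subunits of TRiC, prefoldin, the MCM2-7 ring and the 20S alpha ring in each library, per kb of coding sequence (left) and per kb of transcript (right). TRiC sat at 10.8% to 14.3% on the left, near the alpha ring and below prefoldin, and the order of TRiC, the MCM ring and the alpha ring was another on the right.

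No subunit passed the test between the methods. In edgeR's quasi-likelihood test, 0 of 8 main transcripts passed an adjusted p of 0.05, against 4.51% of all 66972 transcripts tested (3021, with 2.27% higher and 2.24% lower in AHARIBO) and 5.12% of 12361 main coding transcripts. None of the 8 (0) had an unadjusted p under 0.05. DESeq2 also called 0 of 8, against 267 (1.78%) of the 15035 transcripts to which it gave an adjusted p, a smaller set than the 66972. The methods overlapped for all 8 subunits, while 33.8% of all transcripts tested had no overlap between them.

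Cct5 was at 219, 220 and 230 CPM in the standard and 213 and 226 CPM in the AHARIBO libraries. Cct7 was at 216, 226 and 236 CPM in the standard and 204 and 224 CPM in the AHARIBO libraries, the largest difference of the 8. Its log2 fold change, AHARIBO over standard, was −0.08 (SE 0.08, edgeR adjusted p = 0.644). The other extreme was Tcp1, with 175, 178 and 167 CPM in the standard and 173 and 187 CPM in the AHARIBO libraries. Its log2 fold change was 0.05 (SE 0.08, edgeR adjusted p = 0.789). Between these lay Cct3 (−0.05), Cct4 (−0.03), Cct5 (−0.02), Cct6a (−0.01), Cct2 (0.00) and Cct8 (0.02), so that 3 fold changes were positive and 5 negative. Their median was −0.02, and that of all transcripts tested was 0.00. The signs turned with single libraries and with the processing. Without AHARIBO replicate 2 all 8 were negative (median −0.05), without AHARIBO replicate 1 or with only main transcripts it was 3 of 8 (median 0.02 in both), and with library sizes in place of TMM 2 of 8 (median 0.02). The approximate 95% intervals of the 8 reached from 0.855-fold to 1.15-fold, so that a change beyond these bounds lay outside every interval. Each value rested on 998 to 2434 reads per library.

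The 8 main transcripts together took 0.540%, 0.540% and 0.549% of the reads on main protein-coding transcripts (that of Cct6a included) in the standard and 0.536% and 0.565% in the AHARIBO libraries. The means were 0.543% ± 0.005 (SD, n = 3) and 0.550% ± 0.020 (SD, n = 2), with an exact permutation p = 0.7.

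Keeping duplicate reads moved all 8 subunits one way. Cct8 was then at 153, 153 and 146 CPM in the standard and 185 and 174 CPM in the AHARIBO libraries. Both AHARIBO values were above all standard ones. Its log2 fold change was 0.25 (SE 0.07, edgeR adjusted p = 0.0851). Tcp1 (0.17), Cct4 (0.17), Cct5 (0.16), Cct6a (0.10), Cct2 (0.10), Cct7 (0.08) and Cct3 (0.07) were also positive. The median of the 8 was 0.13, against 0.00 over all transcripts tested in that version. Still 0 of 8 passed the adjusted threshold, where 1.92% of 60283 transcripts were called higher, and 3 of 8 had an unadjusted p under 0.05 (Cct4, Cct5 and Cct8). For 6 of 8 subunits both AHARIBO libraries lay above all standard ones, as they did for 19.6% of all transcripts tested.

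The share of reads removed as duplicates sets the difference between the versions, so the shares that follow restate it in another unit. The share was 44.0%, 44.5% and 40.6% over the 8 subunits in the standard libraries and 53.4% and 45.1% in the AHARIBO libraries. Over all main protein-coding transcripts it was 43.4%, 42.2% and 43.2% in the standard and 43.5% and 40.9% in the AHARIBO libraries. The subunits differed from these by −2.60 to 2.33 percentage points in the standard libraries and by 9.82 and 4.15 in the AHARIBO libraries. Over all reads of a library the share was 43.7%, 43.3% and 43.8% in the standard and 47.7% and 44.9% in the AHARIBO libraries. Against that, the subunits differed by −3.25 to 1.23 points in the standard libraries and by 5.65 and 0.216 in the AHARIBO libraries, so that AHARIBO library 2 lay within the standard range. The sources used here name no molecular identifiers. Without them, copies made by PCR and separate fragments with the same ends cannot be told apart. With duplicates kept, the 8 took 0.546%, 0.562% and 0.525% of the reads on main coding transcripts (that of Cct6a included) in the standard and 0.648% and 0.607% in the AHARIBO libraries (exact permutation p = 0.1).

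**Figure D3:**
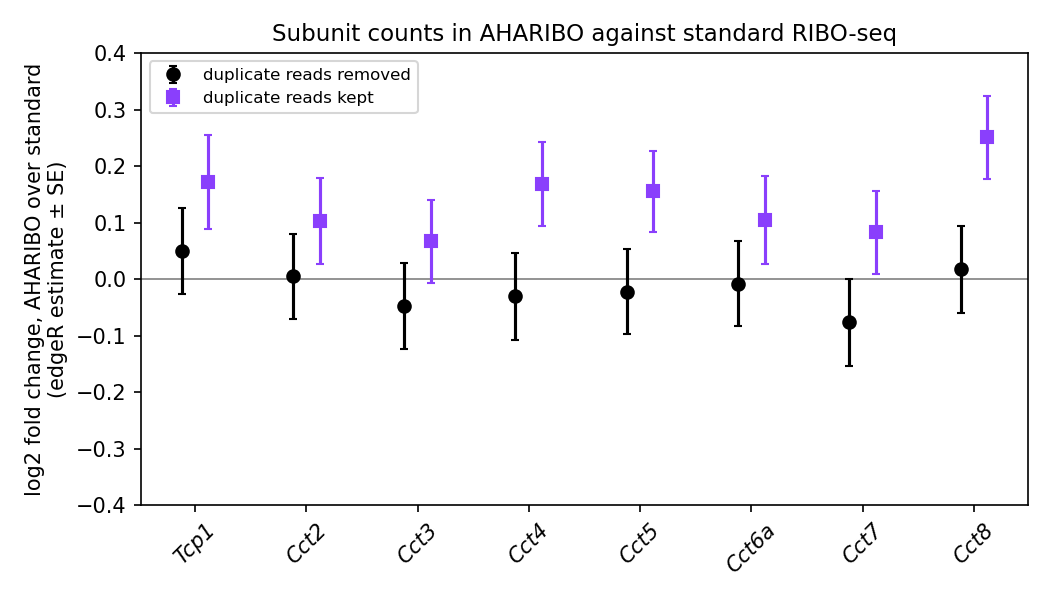
Log2 fold change of the main transcript of each subunit, AHARIBO over standard, with duplicate reads removed (black circles) or kept (purple squares). Bars are the approximate SE of the edgeR estimate (3 against 2 libraries). Black values lie between −0.08 and 0.05 around the zero line, and purple values between 0.07 and 0.25, all above it.

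The 8 genes have 57 further transcripts, and these repeat stretches of the main coding sequence. The authors' text does not say how a read that fits several transcripts was counted, and transcripts of one gene share reads, so they are not separate measurements. They were sorted by where the sequence shared with the main transcript lies, in windows of 30 nt. This grouping was made after the fold changes had been seen, and it is given as a description. With at least 50% of windows in the main transcript, 15 lay within the 5′ 50% of the coding sequence, 8 within the 3′ 50% and 20 spanned both, and the remaining 14 shared fewer windows.

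Among the 15 at the 5′ end, 12 had a negative log2 fold change, with a median of −0.06. With duplicates kept 6 of 15 were negative, with a median of 0.043, and without AHARIBO replicate 1 it was 8 of 15. Relative to the main transcript of the gene, 12 of 15 were lower in AHARIBO, and the median was −0.09. The 8 at the 3′ end were split, 4 negative and 4 positive, with a median of 0.00. The same classes over other genes (main transcript at a mean of at least 50 CPM, nested transcript at 10 CPM) are given for comparison. There, 64.5% of 1184 transcripts at the 5′ end were negative with a median of −0.07, 67.0% were lower relative to the main transcript with a median of −0.05, and 47.3% of 539 at the 3′ end with a median of 0.02. Both AHARIBO libraries lay below all standard ones for 4 of the 15, against 33.2% of the other genes' transcripts in that class.

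Of the 65 transcripts, 2 passed the test, both lower in AHARIBO, which is no more than the 4.51% called over all transcripts tested. Both start at the 5′ end. A retained-intron transcript of Cct3 (ENSMUST00000193666.1) that shares 2.01% of the coding sequence, at its start, was at 17.03, 15.3 and 17.6 CPM in the standard and 10.7 and 11.8 CPM in the AHARIBO libraries. Its log2 fold change was −0.56 (SE 0.12, edgeR adjusted p = 0.00339). As a share of the reads on the main Cct3 transcript, it had 9.18%, 8.38% and 9.45% in the standard and 6.17% and 6.37% in the AHARIBO libraries. A nonsense-mediated decay transcript of Cct4 (ENSMUST00000173853.7), which covers the first 16.7% of the coding sequence, was at 52.0, 45.4 and 55.4 CPM in the standard and 38.5 and 44.2 CPM in the AHARIBO libraries. Its log2 fold change was −0.29 (SE 0.09, edgeR adjusted p = 0.0457). This value was −0.19 without AHARIBO replicate 1 and −0.39 without AHARIBO replicate 2. Neither group of libraries overlapped the other for either transcript. The call on Cct4 was lost with DESeq2 (adjusted p = 0.217), library sizes in place of TMM (0.0782), duplicates kept (0.163) and the replicate block (0.237), and without standard replicate 1 (0.199), standard replicate 3 (0.166) or AHARIBO replicate 1 (0.554). The call on Cct3 was lost without AHARIBO replicate 1 (adjusted p = 0.134), and DESeq2 gave it no adjusted p. Called lower were 1 of the 15 transcripts at the 5′ end, against 7.85% of the other genes' transcripts in that class. The Cct3 transcript belongs to the 14 that share fewer windows.

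**Figure D4:**
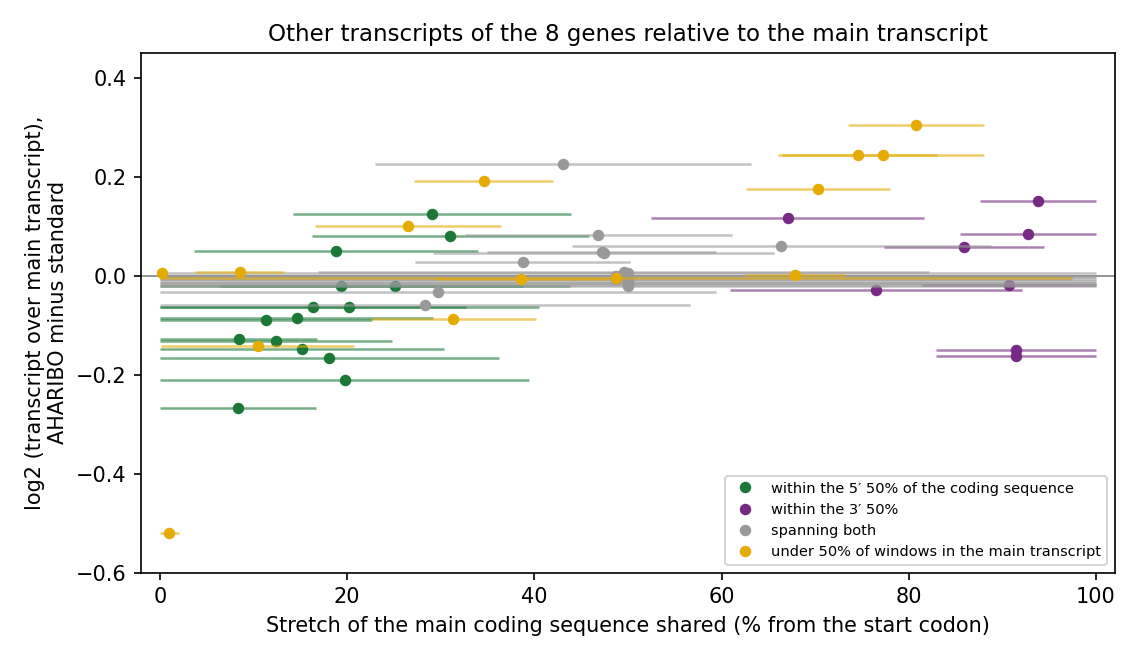
The 57 further transcripts of the 8 genes, placed by the stretch of the main coding sequence they share (line, in % from the start codon, with its midpoint as a point). The y axis gives the log2 ratio of the transcript to the main transcript, AHARIBO minus standard. Transcripts within the 5′ 50% (green) lie mostly below zero, between −0.27 and 0.12, and those within the 3′ 50% (purple) lie between −0.16 and 0.15.

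Retained-intron transcripts of Cct8 and Cct6a stood at the upper end of this range. The highest of Cct6a had a log2 fold change of 0.23. The highest of all, ENSMUST00000177485.1 of Cct8, was at 14.8 ± 0.6 CPM (SD, n = 3) in the standard and 18.5 ± 0.6 CPM (SD, n = 2) in the AHARIBO libraries, and its log2 fold change of 0.31 missed the threshold (edgeR adjusted p = 0.0946). It lies over 73.5% to 88.0% of the coding sequence, with 40.9% of its windows in the main transcript.

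The partners and clients of TRiC were read from 7 lists of 47 genes, of which 46 were tested and 2 (4.35%) were called, both lower in AHARIBO. This share was near that of all transcripts tested (4.51% in either direction, 2.24% lower in AHARIBO) and of main coding transcripts (5.12%). An unadjusted edgeR p under 0.05 was found for 14 of the 46. Its share over all transcripts is not given here. Prefoldin had 0 of 6 called, with a median log2 fold change of −0.01 (from −0.04 without standard replicate 2 to 0.03 with the replicate block over the alternatives run). Its members with the most reads were Pfdn6 (42.4 ± 0.5 CPM in the standard and 39.6 ± 0.9 in the AHARIBO libraries), Pfdn5 (30.2 ± 1.5 and 27.3 ± 0.6) and Pfdn2 (24.6 ± 0.7 and 24.1 ± 0.7). In each pair here, the values are mean and SD over 3 standard and 2 AHARIBO libraries. The prefoldin-like proteins had 0 of 3 called (Uri1 32.7 ± 2.0 and 28.7 ± 1.5 CPM, Uxt 8.41 ± 0.42 and 7.53 ± 1.61, Pdrg1 4.13 ± 1.15 and 4.10 ± 0.01). The phosducin-like and thioredoxin-like cofactors had 0 of 3 called (Pdcl 19.9 ± 2.7 and 19.7 ± 1.1 CPM, Txndc9 15.3 ± 1.8 and 16.9 ± 1.65, Pdcl3 14.0 ± 1.5 and 13.9 ± 1.1), and Pdcl2 was below the filter.

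Of the relatives of the chaperonin, 0 of 6 were called. Hspd1, the mitochondrial chaperonin of the bacterial type, was at 110.1, 122 and 109 CPM in the standard and 134 and 125 CPM in the AHARIBO libraries (log2 fold change 0.19, edgeR adjusted p = 0.172). Hspe1, which caps it, was at 63.2 ± 3.3 and 60.8 ± 0.5 CPM and Mkks at 8.38 ± 0.13 and 8.08 ± 1.69 CPM. Cct6b, the paralogue of Cct6a used in the testis, had a mean of 1.201 CPM. The tubulin cofactors, which take over tubulin after TRiC has folded it, had 1 of 5 called. Tbcc was at 13.6, 13.0 and 10.5 CPM in the standard and 9.54 and 8.69 CPM in the AHARIBO libraries, without overlap (log2 fold change −0.46, SE 0.14, edgeR adjusted p = 0.0418). The call was lost when standard replicate 1 or 2 or either AHARIBO library was left out (adjusted p from 0.0991 to 0.213). It was also lost with library sizes in place of TMM (0.0722), only main transcripts (0.101) and transcripts summed (0.260), and DESeq2 gave it no adjusted p.

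Actin and tubulin had 1 of 10 called. Actb, cytoplasmic beta-actin, was at 616, 607 and 684 CPM in the standard and 484 and 569 CPM in the AHARIBO libraries, without overlap. Its log2 fold change was −0.27 (SE 0.08, edgeR adjusted p = 0.0333). This value was −0.17 with duplicates kept, −0.16 without AHARIBO replicate 1 and −0.39 without AHARIBO replicate 2. The call was lost with DESeq2 (adjusted p = 0.0973), duplicates kept (0.185), at least 1 CPM in every library (0.0964), transcripts summed (0.103) and the replicate block (0.474), and without standard replicate 1 (0.139), standard replicate 3 (0.183) or AHARIBO replicate 1 (0.545). Without AHARIBO replicate 2, Actg1 was called beside it. All 10 fold changes were negative, with a median of −0.16 on the log2 scale (−0.09 without AHARIBO replicate 1 and −0.25 without AHARIBO replicate 2). They are not separate measurements throughout. Windows of 30 nt shared with others of the 10 made up 37.8% to 69.7% of Tuba1a, Tuba1b, Tuba1c, Tubb2a and Tubb2b, at most 5.82% of Actb, Actg1 and Tubb5, and 0% of Tubb4b and Tubg1. These windows cover whole transcripts, untranslated ends included, and genes outside the 10 were not compared. A low share therefore does not make a value a separate measurement. Among the WD40 and other clients, 0 of 13 were called, 11 had a negative fold change, and the median was −0.10. With library sizes in place of TMM, only main transcripts or transcripts summed, 8 of 13 were negative, and the median was −0.05 without standard replicate 2. Cdc20, an activator of the anaphase-promoting complex, was at 121 ± 1.6 CPM in the standard and 107 ± 1.0 in the AHARIBO libraries (edgeR adjusted p = 0.202). Gnb1, a G protein beta subunit, was at 93.4 ± 3.2 and 83.6 ± 2.7 CPM, and Plk1, a mitotic kinase, at 73.7 ± 1.7 and 68.7 ± 4.0 CPM.

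**Figure D5:**
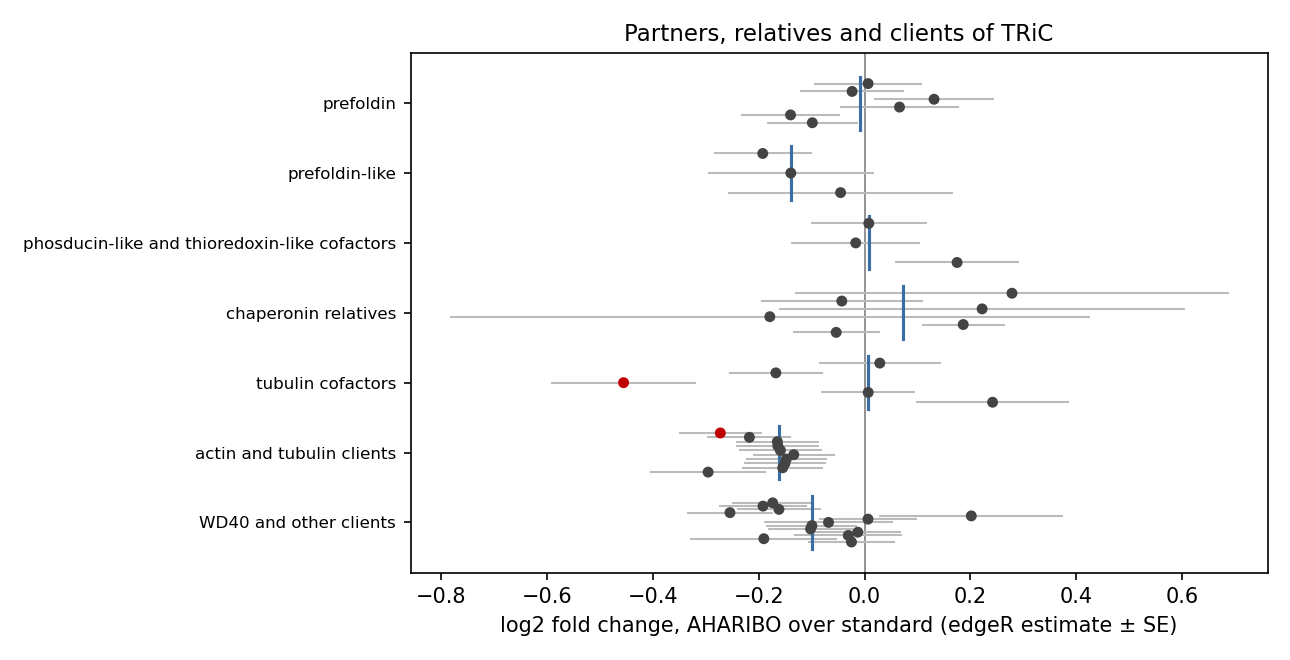
Log2 fold change (AHARIBO over standard, edgeR estimate with approximate SE) of the main transcript of each of 46 partners, relatives and clients, by list. Blue lines are list medians, and the 2 genes with an adjusted p under 0.05 are red (Tbcc at −0.46 and Actb at −0.27). The 10 actin and tubulin genes all lie left of zero.

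Over the 5 libraries, the mean profile of the 8 subunits was nearly flat. Their centred log2 CPM was 0.00, 0.00 and 0.02 in the standard and −0.05 and 0.04 in the AHARIBO libraries. The genes with the nearest profile, among 3690 main coding transcripts with a mean of at least 20 CPM, were Pa2g4, Atp5c1 and Ipo5, with root mean square differences of 0.0058, 0.0073 and 0.0112 log2 units.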

How the data were processed

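Ribosome footprints of mESCs were measured in 3 standard and 2 AHARIBO libraries. The authors trimmed reads (Trimmomatic 0.36, reads under 20 nt discarded), removed rRNA and tRNA matches, aligned to Gencode M17 transcripts with STAR and removed antisense reads. They deposited counts per transcript with and without duplicates, plus transcript length in nt, and 0 columns of sample values were left unused. Transcript types and coding ends came from Gencode M21, which held 99.8% of the deposited identifiers. CPM used TMM factors over all transcripts. Transcripts that reached 1 CPM in any library were tested with edgeR 4.0.16 (R 4.3.3, quasi-likelihood, Benjamini-Hochberg over all tested), and SEs derive from its F statistic. Single values per library were tested by exact two-sided permutation. On simulated counts for 66972 transcripts, edgeR recovered 101 of 102 changed 2-fold and 98 of 98 changed 4-fold, with 14 unchanged ones called. DESeq2 recovered 90 of 102 and 98 of 98. Changes were placed only in transcripts above a minimum mean count, and the counts of each transcript were drawn separately. Changes as small as those of the subunits were not simulated. Alternatives were DESeq2 1.42.0, library-size scaling, other filters, duplicates kept, 1 or summed transcripts per gene, transcript length, the replicate block and leaving out each library. Leaving out Cct6a, summed transcripts for the other complexes, and every setting for nested transcripts, were added after the data were seen. Members and lists were chosen with earlier results of these data known. Named were the 8 subunits, from each list the genes with an adjusted p under 0.05 or else the 3 with the highest mean CPM, and the 3 nearest profiles. Cct6b and the nested transcripts were named after their values were seen. Depth of 3 counts corresponds to 0.262 to 0.476 CPM, which covers counting error only.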

Additional observations from a re-analysis of the deposited data

How the results depend on the processing

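The number of subunits called was 0 of 8 under all 13 alternatives, with log2 fold changes from −0.14 to 0.25 and adjusted p of at least 0.0851. Signs of these small values turned with duplicates kept (Cct3 0.067, Cct4 0.17, Cct5 0.16, Cct6a 0.10, Cct7 0.083), with library sizes in place of TMM (Cct4 0.0037, Cct5 0.012, Cct6a 0.027), with only main transcripts (Cct5 0.0079, Cct6a 0.022), with transcripts summed (Cct2 −0.030, Cct5 0.00030) and with DESeq2 (Cct2 −0.0030). Leaving out 1 library gave −0.0049 to 0.11 (Tcp1), −0.039 to 0.051 (Cct2), −0.093 to −0.00037 (Cct3), −0.087 to 0.027 (Cct4), −0.062 to 0.019 (Cct5), −0.013 to 0.0028 (Cct6a), −0.14 to −0.012 (Cct7) and −0.029 to 0.065 (Cct8). The cause of these turns was not tested.

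Density relative to the mean of the 8 was, in the order Cct5, Cct7, Cct2, Cct6a, Cct4, Cct3, Tcp1 and Cct8, 1.15, 1.15, 1.04, 1.02, 0.982, 0.945, 0.894 and 0.815. Duplicates kept moved it to 1.19 (Cct5), 1.09 (Cct7), 1.12 (Cct2) and 0.921 (Cct4). Summing transcripts, which counts shared reads more than once, moved it to 0.684 (Cct5), 0.98 (Cct7), 1.14 (Cct2), 1.05 (Cct6a), 0.836 (Cct4), 1.43 (Cct3) and 1.01 (Cct8). Transcript length moved it to 1.39, 1.05, 1.17, 0.835, 0.878, 1.07, 0.837 and 0.768 in the same order. Leaving out 1 library gave 1.15 to 1.16 (Cct5), 1.13 to 1.16 (Cct7), 1.04 (Cct2), 1.02 to 1.03 (Cct6a), 0.977 to 0.986 (Cct4), 0.942 to 0.949 (Cct3), 0.886 to 0.908 (Tcp1) and 0.812 to 0.818 (Cct8). The highest over the lowest density was 2.09 with transcripts summed and 1.81 by transcript length, and the coefficient of variation 22.5% and 21.1%, and 13.3% with duplicates kept. Without 1 library these were 1.41 to 1.44 and 11.3% to 12.2%, their differences between methods −0.079 to −0.037 and −2.29 to −0.78, and the difference in the share of reads −0.0070 to 0.022 percentage points. Against TRiC, the MCM ring turned to −5.19 points by transcript length, and the alpha ring to 2.43 with duplicates kept, 16.8 by transcript length and 2.65 with transcripts summed, where the MCM ring rose to 33.7 points. The share difference turned to −0.0033 points with transcripts summed.

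Partner and client calls fell from 2 to 1 with library sizes, 1 CPM in every library, duplicates kept, only main transcripts or the replicate block, and to 0 with DESeq2 or summed transcripts, with 0 to 2 when 1 library was left out. The median of the 3′ transcripts turned to −0.0045 with DESeq2 and −0.0032 with the replicate block, with −0.058 to 0.042 when 1 library was left out. That of the 5′ transcripts turned to 0.043 with duplicates kept (6 of 15 negative), and was −0.12 to −0.018 when 1 library was left out.

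Replicate numbers did not pair the libraries by the data (correlations of deviations of 0.066 for number 1 and −0.286 for number 2, against 0.286 for standard 2 with AHARIBO 1 and 0.314 for standard 3 with AHARIBO 2). With 2 AHARIBO libraries these deviations are mirror images, so the values are not separate checks. With the replicate block, in which standard replicate 3 has no partner, 1792 transcripts were called in place of 3021, and 1815 without that library and with no block. DESeq2 called 267, main transcripts alone gave 905, summed transcripts 147, and leaving out 1 library 510 to 3829. The low counts of Tbcc and of the called Cct3 transcript limit the precision of their values.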
